A study of Mus musculus with 6 samples.

Results

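Cholesterol synthesis genes were examined in the heart ventricles of E9.5 mouse embryos through 8 genes, Hmgcs1, Idi1, Fdft1, Sqle, Lss, Cyp51, Srebf2 and Insig1. They were chosen by name with earlier results of these data known, so their standing among other genes is a description only, and all 8 were found among the 23284 genes of the deposited expression table. The study asked which genes are affected when Tbx5ua, a long non-coding RNA transcribed divergently from the promoter of the cardiac transcription factor gene Tbx5, is knocked down. The WT group held 3 tetraploid chimeric embryos derived from wild type C57BL/6 ES cells, and the KD group 3 such embryos derived from Tbx5ua -/- ES cells, in which inserted polyadenylation signals end transcription of Tbx5ua early on both alleles. In tetraploid complementation the embryo proper comes from the injected ES cells, and edited ES cells were grown from single colonies. The sources used here do not say which of the ES cell lines gave the sequenced embryos, so a difference between lines and a difference between genotypes cannot be told apart. Each library started from 10 ng of total RNA, which went through 12 preamplification and then 9 enrichment PCR cycles.

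Cells make cholesterol from acetyl-CoA through mevalonate, isoprenoids and squalene, and take it up as lipoprotein through receptors at the cell surface. When sterols in the endoplasmic reticulum run low, the escort protein SCAP carries the transcription factor SREBP2, the product of Srebf2, to the Golgi, where proteases release its active part, which raises transcription of most genes of the pathway. INSIG proteins hold SCAP back when sterols are plentiful, and Insig1 is itself an SREBP target. In the embryo, cholesterol is needed for membranes and for the modification of Hedgehog proteins. Of the 8 genes, 6 encode enzymes of synthesis and 2 encode parts of the sterol sensor, while none encodes a protein of uptake, so uptake genes are described here from a separate list.

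Levels are in FPKM, a read density corrected for the length of the transcript and the size of the library, and the authors' table has a single group value for WT and another for KD. No value of a single embryo was available, so no SD can be given and no test was made here. The authors' own test results were not used, and every difference below describes these group values only. The FPKM sums over all genes were 859452 (WT) and 877889 (KD). A gene was kept where either group reached 1 FPKM, which held for 11606 genes and all 8 members. The median difference of the genes kept, KD minus WT on the scale of log2(FPKM + 1), was 0.00. In bulk tissue, fewer cells of a type and less RNA per cell cannot be told apart. The labels could not be checked against the target, since Tbx5ua is not analysed here.

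All 8 genes had a higher group value in KD than in WT as deposited, although Fdft1 turned to a difference of -0.01 when the groups were scaled to the same FPKM sum. In 4 of them, Insig1, Lss, Sqle and Hmgcs1, FPKM + 1 was at least 25% higher in KD, which is the mark used below in either direction. Insig1 and Lss differed the most, and Fdft1 and Idi1 hardly at all. None of the 8 was lower by that factor. Among all genes kept, 8.80% were past the mark and higher in KD, 6.40% past it and lower, and 50.9% higher by any amount. Among the 6297 genes whose WT level lay within the range of the members, 3.67 to 44.7 FPKM, the same shares were 6.32%, 6.08% and 48.2%. The median difference of the 8 genes was 0.32 on the log2(FPKM + 1) scale, against 0.00 for all genes kept and -0.01 for the genes within the level range. Summed over the 8 genes, the level was 165.9 FPKM in WT against 192.7 in KD, a ratio of 1.16. The mark, 0.3219 on this scale, fell inside a close group of genes. Hmgcs1 at 0.3220 and Sqle at 0.3224 lay just past it and Cyp51 at 0.3147 just short of it, so the count of 4 turns on a small margin. It fell to 2, Insig1 and Lss, when the groups were scaled to the same FPKM sum, where 7.65% of all genes kept were past the mark and higher. It was 5, with Cyp51, when no pseudocount was added, where that share was 12.4%.

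**Figure D1:**
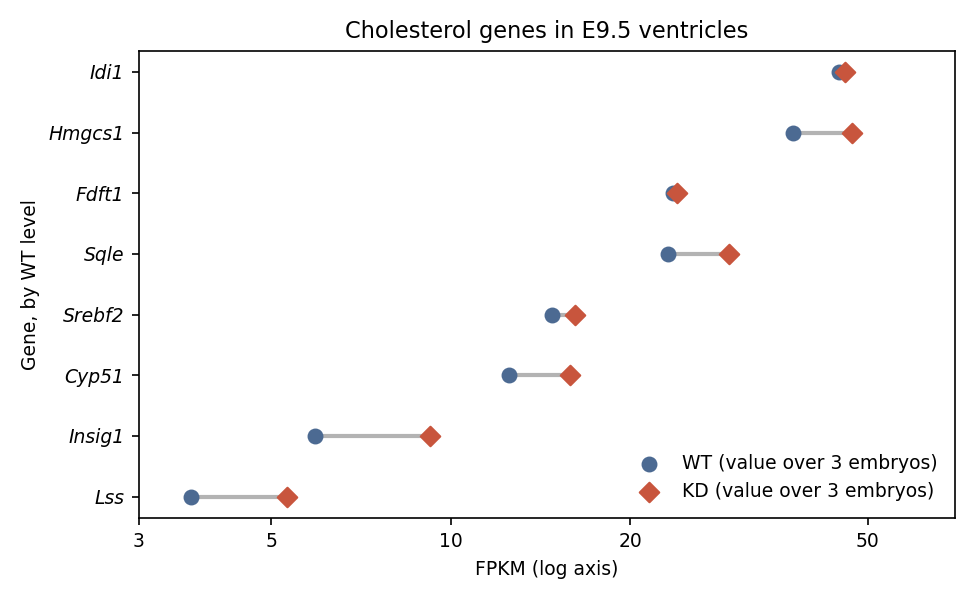
Group values of the 8 genes in FPKM on a log axis, WT as circles and KD as diamonds, each 1 value over 3 embryos with no error available. Every diamond lies to the right of its circle in these values as deposited (Fdft1 alone turns when the FPKM sums are made equal), from Fdft1 at 23.6 and 23.9 FPKM to Insig1 at 5.92 and 9.22 FPKM.

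The sequences before the start sites of Hmgcs1, Insig1 and Lss, which were past the mark, and of Idi1, which differed little, are shown because SREBP2 is known to act on this pathway through its promoters. Windows of 300 bases, 250 before and 50 after the start site, came from RefSeq (GRCm38.p6) and matched 6 of the 8 genes. Sqle and Fdft1 were not matched. The letters searched on both strands were TCACNCCAC and the shorter CACCCCAC, after the sterol regulatory element that SREBPs bind, CCAAT (the NF-Y box), GGGCGG (the GC box bound by Sp1) and CACGTG (an E-box). The first pair can overlap each other. Only the 250 bases before the RefSeq start site are printed, 5′ to 3′ on the strand of the gene, and capitals mark every match. The GENCODE starts given below for Insig1, Lss and Idi1 lie inside these stretches. They lie at chr13:119690101-119690350 for Hmgcs1, chr5:28071162-28071411 for Insig1, chr10:76531355-76531604 for Lss and chr13:8885356-8885605 for Idi1, all on the plus strand.
Hmgcs1: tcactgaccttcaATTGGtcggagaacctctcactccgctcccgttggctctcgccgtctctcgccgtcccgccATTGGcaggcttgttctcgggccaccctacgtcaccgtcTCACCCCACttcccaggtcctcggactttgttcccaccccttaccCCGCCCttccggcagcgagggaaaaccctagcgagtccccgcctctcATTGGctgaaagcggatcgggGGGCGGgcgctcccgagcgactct
Insig1: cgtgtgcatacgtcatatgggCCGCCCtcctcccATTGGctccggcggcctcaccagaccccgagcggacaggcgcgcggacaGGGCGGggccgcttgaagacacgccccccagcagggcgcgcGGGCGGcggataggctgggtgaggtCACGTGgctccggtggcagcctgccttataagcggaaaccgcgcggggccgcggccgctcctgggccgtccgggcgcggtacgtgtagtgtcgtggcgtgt
Lss: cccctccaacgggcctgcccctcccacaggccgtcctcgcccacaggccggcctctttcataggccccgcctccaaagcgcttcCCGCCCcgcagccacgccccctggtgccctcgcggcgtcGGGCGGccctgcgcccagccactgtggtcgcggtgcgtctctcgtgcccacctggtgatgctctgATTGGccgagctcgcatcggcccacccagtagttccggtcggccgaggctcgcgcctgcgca
Idi1: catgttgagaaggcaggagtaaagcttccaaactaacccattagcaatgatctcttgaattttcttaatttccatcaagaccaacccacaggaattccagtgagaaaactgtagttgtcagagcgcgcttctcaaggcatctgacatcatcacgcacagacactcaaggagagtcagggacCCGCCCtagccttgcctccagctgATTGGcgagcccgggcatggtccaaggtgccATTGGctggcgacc

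Of these, Hmgcs1 alone held an exact match to the sterol element letters, found as TCACCCCAC from base -137 to -129. Positions are counted back from the RefSeq start site at +1. No mismatch was allowed, so a window without these letters may still hold a variant of the element. These letters were present in 1 of the 6 member windows and in 1.24% of all 32851 windows, and the shorter form in 1 of 6 and 2.87%. The Hmgcs1 window also held 3 NF-Y boxes before the start, nearest at -45. Insig1 held 1 NF-Y box at -216 and an E-box at -101, the E-box letters being present in 7.15% of all windows. Lss held an NF-Y box at -62, and Idi1 held NF-Y boxes at -45 and -14. An NF-Y box stood in all 6 member windows, those of Cyp51 and Srebf2 included, and in 37.4% of all windows. A GC box likewise stood in all 6, in 35.7% of all windows and in 64.0% of the windows of genes kept here. The matches describe letters only. NF-Y and GC boxes stood in all 6 member windows, from Idi1 with a difference of 0.03 to Insig1 with 0.56. Their presence therefore could not set these members apart.

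The first member of the pathway is Hmgcs1, whose cytosolic synthase condenses acetyl-CoA and acetoacetyl-CoA into HMG-CoA. The gene lies on chromosome 13 from 119690379 to 119708260 on the plus strand (GENCODE M21, build GRCm38). Its group value was 37.5 FPKM in WT against 47.1 in KD, 25.7% higher, and the difference was 0.32 on the log2(FPKM + 1) scale. In KD it was the most abundant of the 8, a place that Idi1 held in WT.

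Idi1 encodes the isomerase that interconverts isopentenyl and dimethylallyl diphosphate, and lies on chromosome 13 from 8885501 to 8892451 on the plus strand. It had 44.7 FPKM in WT against 45.8 in KD, a difference of 0.03. At 1.02 times its WT level it was, with Fdft1, the member closest to no difference. Fdps, the farnesyl diphosphate synthase gene and the most abundant of the synthesis list, had 129.6 FPKM in WT against 143.0 in KD, a difference of 0.14.

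Fdft1 encodes squalene synthase, the first step committed to sterols, and lies on chromosome 14 from 63145150 to 63179578 on the minus strand. Its values were 23.6 FPKM in WT against 23.9 in KD, a difference of 0.02. In the table it shares its locus with Ctsb, which had 40.9 and 39.4 FPKM, so reads between the 2 genes are less certainly assigned. Scaling the groups to the same FPKM sum turned its difference to -0.01, the one member whose direction turned under any alternative.

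Sqle encodes squalene epoxidase, a rate-limiting oxygen-dependent enzyme, and lies on chromosome 15 from 59315077 to 59331192 on the plus strand. Its group value was 23.2 FPKM in WT against 29.2 in KD, 26.1% higher, with a difference of 0.32. Fdft1 and Sqle, successive steps, stood at nearly the same level in WT with a ratio of Sqle to Fdft1 of 0.983, while in KD the ratio was 1.22.

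Lss encodes lanosterol synthase, which closes the sterol rings, and lies on chromosome 10 from 76531588 to 76557138 on the plus strand. It was the least abundant of the 8 in both groups, with 3.67 FPKM in WT against 5.32 in KD, 45.0% higher. The difference was 0.44 on the log2(FPKM + 1) scale and 0.54 without a pseudocount. Among all genes kept, 4.67% had a difference as large or larger in this direction. Lss shares its locus in the table with 4930483K19Rik, which had 0.305 FPKM in WT against 0.384 in KD.

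Cyp51 encodes the cytochrome P450 that demethylates lanosterol, and lies on chromosome 5 from 4081145 to 4104746 on the minus strand. It had 12.5 FPKM in WT against 15.9 in KD, 26.3% higher, with a difference of 0.31. By the plain ratio Hmgcs1, Sqle and Cyp51 were nearly alike, at 1.26 each. The 3 successive enzymes Sqle, Lss and Cyp51 thus each had a plain ratio of at least 1.26, and Fdft1 just before them 1.02.

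Srebf2, which encodes SREBP2, lies on chromosome 15 from 82147181 to 82205379 on the plus strand. Its values were 14.8 FPKM in WT against 16.1 in KD, 9.10% higher, with a difference of 0.12, smaller than that of 5 of the other members. The microRNA gene Mir33, within its locus in the table, was listed at 0 in both groups. Srebf1, its paralog, had 6.73 and 7.85 FPKM, a difference of 0.20, and the ratio of Srebf2 to Srebf1 was 2.20 in WT and 2.06 in KD. Srebf1 shares its locus in the table with Rai1, which had 4.33 FPKM in WT against 4.96 in KD, a difference of 0.16.

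Insig1, which retains SCAP in the endoplasmic reticulum, lies on chromosome 5 from 28071363 to 28078662 on the plus strand. It had 5.92 FPKM in WT against 9.22 in KD, 55.8% higher and the largest difference of the 8 at 0.56. Of all genes kept, 2.50% had a difference this large or larger in the same direction. Its relative Insig2 had 11.2 FPKM in WT against 14.2 in KD, a difference of 0.31. Scap, whose product the INSIG proteins bind, had 6.87 FPKM in WT against 6.48 in KD. The level of Insig1 was therefore 0.861 times that of Scap in WT and 1.42 times in KD.

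By level, the order in WT was Idi1, Hmgcs1, Fdft1, Sqle, Srebf2, Cyp51, Insig1 and Lss, spanning 12.2-fold from highest to lowest. In KD it was Hmgcs1, Idi1, Sqle, Fdft1, Srebf2, Cyp51, Insig1 and Lss, spanning 8.85-fold. The order differed by 2 swaps of neighbours, Hmgcs1 with Idi1 and Sqle with Fdft1, and in both the gene that stood higher in KD was one past the mark. Without values of single embryos it is not known which neighbours differ beyond their spread.

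The wider pathway was described with a list of 21 genes, which includes the 6 member enzymes. In the list 3 genes, Hmgcs1, Sqle and Lss, were past the mark and higher in KD, 0 were past it and lower and 18 were neither, where 8.80% and 6.40% of all genes kept were past the mark. Of the 21 genes, 16 were higher in KD by any amount and 5 lower, with a median difference of 0.14. The 15 genes that are not members had a median of 0.11, with 10 higher, 5 lower and 0 past the mark. All 3 genes past the mark were members, which were chosen with earlier results of these data known, so this is a description only. The 8 genes of the mevalonate steps had a median of 0.15 and the 13 later ones 0.11. Summed over the 21 genes, the level was 550.7 FPKM in WT against 599.5 in KD, of which the 6 member enzymes made up 26.4% and 27.9%.

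**Figure D2:**
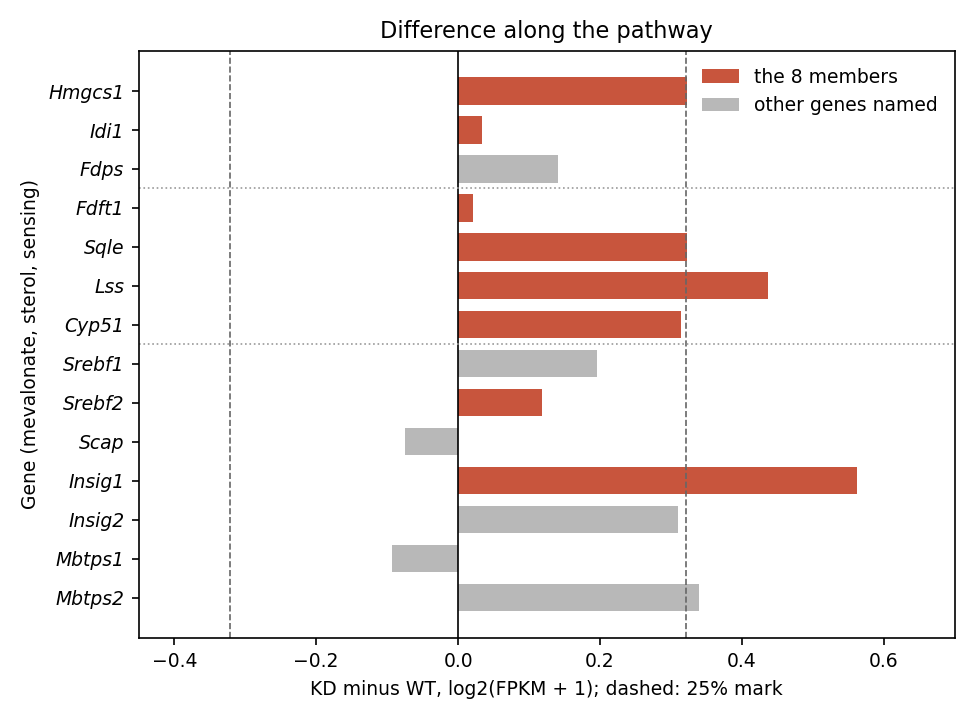
Difference of each gene, KD minus WT on the log2(FPKM + 1) scale, for the genes named in the text from the synthesis list, in pathway order, and from the sterol sensing list, with the 8 genes in red and the 25% marks dashed. Sqle, Lss and Cyp51 form a run of long bars, while Idi1 and Fdft1 lie at 0.03 and 0.02.

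**Figure D3:**
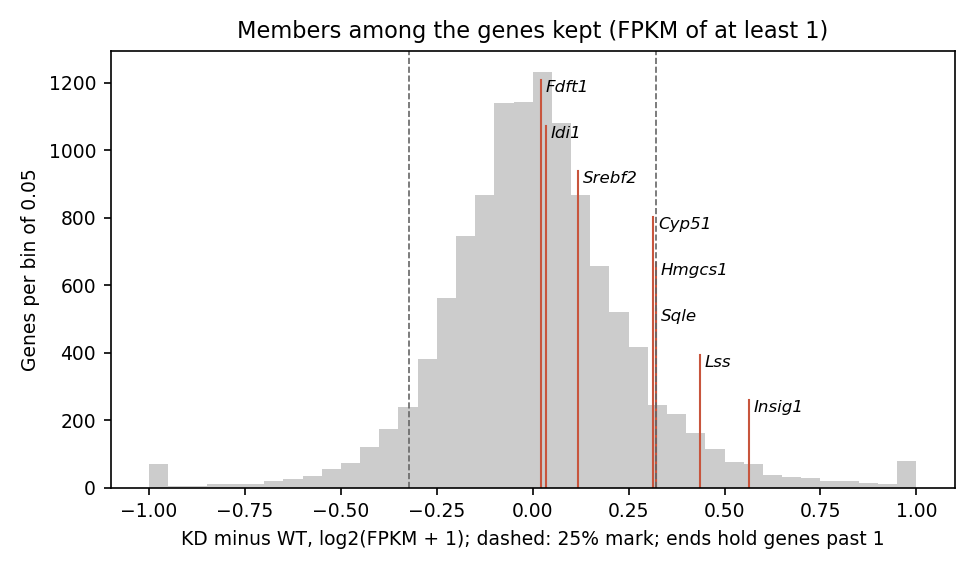
Number of genes per bin of the difference, KD minus WT on the log2(FPKM + 1) scale, over the 11606 genes kept, with the end bins holding all genes past 1 in either direction. Red lines mark the 8 members, which run from 0.02 for Fdft1 to 0.56 for Insig1, all to the right of 0 as deposited, with Fdft1 at -0.01 when the FPKM sums are made equal.

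Among the 7 genes of sterol sensing, which include Srebf2 and Insig1, 2 were past the mark and higher in KD, 0 lower and 5 neither, with a median difference of 0.20, beside 8.80% higher and 6.40% lower among all genes kept. The count was 1 with equal FPKM sums, among genes of at least 5 FPKM and without genes that share a locus, where 7.65%, 6.44% and 8.73% of all genes were past the mark and higher. In the last of these the list median was 0.12. Besides Insig1 this was Mbtps2, which encodes a Golgi protease that cleaves SREBPs, with 2.98 FPKM in WT against 4.04 in KD, a difference of 0.34. Mbtps2 shares its locus with Yy2, which had 4.24 and 3.61 FPKM. Mbtps1, which encodes the other protease and was the most abundant and the lowest of the list, had 25.5 and 23.8 FPKM, a difference of -0.09.

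Of 5 genes for the degradation of sterol enzymes, 1 was past the mark and higher in KD and 0 were lower, against 8.80% and 6.40% of all genes kept. Rnf145, which encodes a ubiquitin ligase of the endoplasmic reticulum, had 11.2 FPKM in WT against 15.5 in KD, a difference of 0.44. The list median was 0.13, and it turned to -0.12 without genes that share a locus and was 0.01 among genes of at least 5 FPKM.

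Uptake of lipoprotein cholesterol was described with 14 genes. Of these 11 were kept and 0 were past the mark in either direction, beside 8.80% higher and 6.40% lower among all genes kept. By any amount 4 were higher and 7 lower. The median difference was -0.07, which turned to 0.09 among genes of at least 5 FPKM. Stard4, which encodes a carrier of cholesterol within the cell, was the lowest of the list with 7.77 and 6.18 FPKM, a difference of -0.29. Scarb1, the receptor gene with the highest WT level, had 43.3 and 46.2 FPKM, and Npc2, the highest of the list, differed by 0.14. With a pseudocount of 0.1, Stard4, Npc1 and Lrp1 were past the mark, all 3 lower in KD, where 1084 of all 11606 genes kept were past it and lower.

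Of 11 genes of efflux, esterification and oxysterol formation, 8 were kept, with a median difference of 0.03. Of these 0 were past the mark and higher and 2 past it and lower, beside 8.80% and 6.40% of all genes kept. The 2 lower became 1 when both groups had to reach 1 FPKM, where 585 of 11001 genes were past the mark and lower. They became 0 among genes of at least 5 FPKM, where 381 of 7931 were and the median was 0.10. With no pseudocount 2 were past the mark and higher, as were 12.4% of all genes, and 3 lower, as were 1090 of 11548. The 2 lower at the main settings were Soat2 and Cyp46a1. Soat2, which encodes an acyltransferase that esterifies cholesterol, had 1.38 FPKM in WT against 0.762 in KD. Cyp46a1, a cholesterol hydroxylase gene, had 1.60 and 1.02 FPKM. Both are low in this tissue. Apoe, which encodes a lipoprotein component, was the most abundant and the highest, with 215.7 FPKM in WT against 253.1 in KD, a difference of 0.23.

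The isoprenoid branches, which draw on the same mevalonate, held 11 genes, all kept. Of these 0 were past the mark in either direction, beside 8.80% higher and 6.40% lower among all genes kept. By any amount 4 were higher and 7 lower, with a median of -0.04. They ran from -0.27 for Pdss1 to 0.26 for Pdss2, which encode the 2 subunits of an enzyme of ubiquinone synthesis. Pdss1 shares its locus in the table with another gene. Rce1, which encodes a protease of prenylated proteins, had the highest WT level at 28.4 FPKM and 28.2 FPKM in KD.

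Fatty acid synthesis, which is driven more by the product of Srebf1, held 12 genes of which 10 were kept, 1 past the mark higher and 0 lower, against the same 8.80% and 6.40% of all genes, with a median of 0.11. Without genes that share a locus 0 were past the mark and the median turned to -0.03. In that setting 8.73% of all genes were past it and higher, and 571 of 9408 lower. With equal FPKM sums, a pseudocount of 0.1 or none, 1 was past the mark and lower. In these settings 881 of 11586, 1084 of 11606 and 1090 of 11548 genes kept were past it and lower. Scd2, which encodes a desaturase, had 37.3 FPKM in WT against 48.8 in KD, a difference of 0.38. It shares its locus with Mir5114, listed at 0 in both groups. Acaca, the acetyl-CoA carboxylase gene, lay at the other end with 3.36 and 2.50 FPKM, a difference of -0.32. Acly, the most abundant in WT, had 41.8 and 40.8 FPKM.

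**Figure D4:**
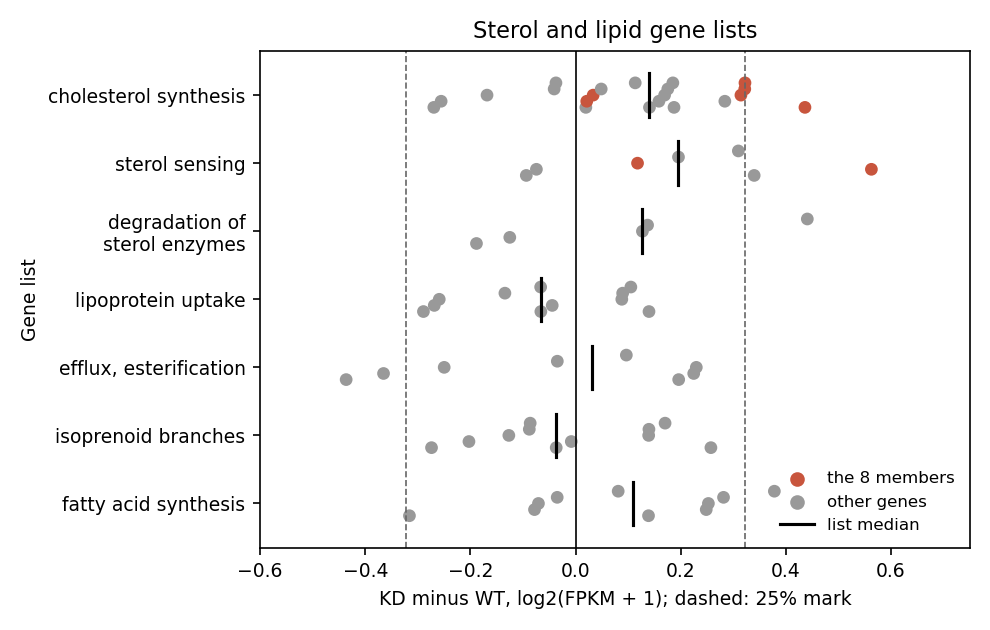
Difference of each gene kept, KD minus WT on the log2(FPKM + 1) scale, by gene list, with the 8 members in red, list medians as black bars and the 25% marks dashed. The medians run from -0.07 for uptake to 0.20 for sterol sensing, and the points are offset vertically for legibility only.

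Markers of the cell types a dissected ventricle can hold were measured beside these genes. For the counts that follow, 8.80% of all genes kept were past the mark and higher in KD and 6.40% past it and lower. Of 9 cardiomyocyte markers 0 were past the mark, with summed levels of 30591 FPKM in WT against 31536 in KD. By any amount 3 of them were higher and 6 lower, with a median difference of -0.03. Of 8 endocardial markers 1, Emcn, was past it and higher in KD, with sums of 155.5 and 169.6 FPKM. Emcn alone had 43.1 FPKM in WT against 57.4 in KD, and by any amount 5 of the 8 were higher and 3 lower. Of 7 erythroid markers in the table, 1 was past the mark higher and 2 lower, with sums of 11453 and 11527 FPKM. By any amount 3 of these were higher and 4 lower. All 7 epicardial markers were higher in KD, the 6 kept all past the mark with a median of 0.90, and their sum was 47.3 FPKM in WT against 96.8 in KD. Epicardial markers were thus higher in KD, as were the group values of all 8 members as deposited, 4 of them past the mark. The part of epicardial cells in the members' differences was not tested. Hepatic and yolk sac markers, from tissues with active cholesterol metabolism, summed to 0.835 FPKM in WT against 1.41 in KD, with Alb and Fgb listed at 0 in both groups. Of these, the genes with the highest KD values were Ttr, with 0.425 FPKM in WT against 0.790 in KD, and Afp, with 0.00717 against 0.294 FPKM. The sums of 6 macrophage markers were 0.765 and 0.662 FPKM, and those of 6 neural crest and pharyngeal markers 1.07 and 0.635 FPKM.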

How the data were processed

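Ventricles of 3 WT and 3 KD embryos were sequenced (Smart-Seq2, single-end reads without strand, so that a gene and an antisense partner cannot be told apart). Per the submitters' processing notes, TopHat, Bowtie2 and Cuffdiff were used with mouse build mm10. Versions are not given in the sources used here. The authors deposited 1 table with an FPKM value per gene and group, the KD group under the name KO. It has no column for a single embryo, so 0 such columns went unused. The authors' own fold changes, test statistics, p-values and q-values stand in the same table and were not used.

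The difference between groups was computed as log2(FPKM + 1) of KD less that of WT, over the 11606 of 23284 genes that reached 1 FPKM in WT, KD or both. A gene was counted as past the fold where FPKM + 1 was at least 25% higher in one group than in the other, and a pseudocount of 1 understates the difference of low genes. No test was made, because each group has 1 value. The 2 genes listed as having too many reads were left out. Older symbols were matched through RefSeq synonyms (Sc4mol for Msmo1, Emr1 for Adgre1), and Hba-a1 was not matched. Gene positions are from GENCODE M21 and promoter windows from RefSeq (GRCm38.p6). Depth per library is unknown.

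The members and gene lists were chosen with earlier results of these data known. Named genes were all members, every other listed gene past the fold, and the highest, the lowest and the most abundant gene of each list, with Scap and Srebf1. Some genes of the rule are not reported here. The values of Insig2, Npc1, Lrp1, Emcn, Afp, Ttr and genes sharing a locus with a named gene, and the ratios between genes, had been seen before they were picked. Alternatives were other pseudocounts, filters, folds and scalings, and leaving out genes that overlap another gene. The counting of genes past the fold was tested on simulated data. Python 3.11.15, NumPy 2.4.6, pandas 2.3.3 and Matplotlib 3.10.9 were used.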

Additional observations from a re-analysis of the deposited data

How the results depend on the processing

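No paired analysis was possible because each group is given as 1 column over its 3 embryos, and for the same reason leaving out an embryo was not run. The depth of the libraries is unknown, which limits what can be said of genes of low FPKM. With no spread between embryos, any change of a median, difference or percentage at 2 decimals was counted as a move, and a count was taken as moved when it changed by over 1.5 times or to or from 0. The 4 members past the 25% mark became 2 with the median of all genes subtracted, 2 with both groups scaled to the same FPKM sum and 0 at a 1.5-fold mark. The count stayed between 3 and 5 under the other alternatives. It was 3 without genes that share a locus, where Lss, Srebf2 and Fdft1 were left out and not evaluated. The members' median difference of 0.32 became 0.33 with a pseudocount of 0.1, 0.33 with none, 0.31 with the median of all genes subtracted and 0.29 with equal sums. For the synthesis list, the 3 genes higher became 1 with the median subtracted, 1 with equal sums, 11 at a 1.1-fold mark and 0 at a 1.5-fold mark, and the 0 genes lower became 1 with no pseudocount and 3 at a 1.1-fold mark. At the 1.1-fold and 1.5-fold marks 25.5% and 2.20% of all genes kept were higher, and 2774 of 11606 were lower at the 1.1-fold mark. With no pseudocount 1090 of 11548 genes were past the mark and lower. With the median subtracted and with equal sums, 8.59% and 7.65% were past it and higher. The synthesis list median of 0.14 became 0.11 with equal sums and 0.15 without genes that share a locus. The uptake median of -0.07 became 0.09 with genes of at least 5 FPKM. Without genes that share a locus, the median of the degradation list turned from 0.13 to -0.12 and that of fatty acid synthesis from 0.11 to -0.03. The cause of these changes was not tested. Of the values of the other lists, all genes and single members, 93 moved and 168 stayed within these tolerances. The 93 include the uptake, degradation and fatty acid medians just given. Each member but Fdft1 stayed above 0 under every alternative in which it was evaluated. Restricting all genes to the level range of the members, chosen after seeing the data, left 398 higher and 383 lower of 6297.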
